A study of Mus musculus with 2 samples.

Results

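The 9 genes described here encode enzymes that make and break down heme: Alas1, Alas2, Alad, Uros, Urod, Cpox, Ppox, Fech and Hmox1. They were taken by their GENCODE M21 symbols, and all 9 were found among the 43346 Ensembl genes of the quantifications. RNA was sequenced from whole hearts of B6NCrl mouse embryos at day 15.5, in 2 libraries of 1 group. Replicate 1 came from 78 embryos pooled and replicate 2 from 62, with the sexes mixed, and no treatment or altered allele is named. Gene counts summed to 41221435 in replicate 1 and 38457396 in replicate 2. Levels are TPM (a length-normalised share of all transcripts) as the authors deposited them. With 1 group there was no contrast to test, and the SD given over the libraries (n = 2) is a spread between pools, not between embryos.

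Heme is an iron-containing ring that carries oxygen in hemoglobin and myoglobin and electrons in the cytochromes. Its synthesis starts in the mitochondrion with 5-aminolevulinate synthase, passes through the cytosol, and ends in the mitochondrion, where iron is inserted. The first enzyme has a housekeeping form, Alas1, found in all tissues, and an erythroid form, Alas2, which is encoded on the X chromosome and supplies hemoglobin synthesis. Heme oxygenase opens the ring and releases iron, carbon monoxide and biliverdin.

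Of 10 cardiomyocyte genes, 10 reached 1 TPM in both libraries, beside 58.2% of all protein-coding genes. All 6 endothelial genes did so too, so that count does not identify the tissue. The median of the cardiomyocyte genes was 3062 TPM in replicate 1 and 2794 TPM in replicate 2. Actc1, cardiac actin, stood at 10855 TPM in replicate 1 and 9704 TPM in replicate 2. Red cell RNA was abundant in the same libraries: the 7 globin genes of the fixed list summed to 122088 TPM in replicate 1 and 117966 TPM in replicate 2. In such bulk RNA, fewer cells of a type and less RNA per cell cannot be told apart, so no level below is assigned to muscle or to red cells.

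Every enzyme of the set was detected. At 1 TPM or more in both libraries stood 9 of 9 members, beside 58.2% of all 21474 protein-coding genes, and 8 of the 9 exceeded the median of the detected protein-coding genes, which was 14.5 TPM in replicate 1 and 17.1 TPM in replicate 2. By mean level the order was Alas2, Fech, Alas1, Urod, Alad, Ppox, Uros, Cpox and Hmox1. The ranges of the 2 libraries overlapped for 1 pair of neighbours, Uros and Cpox, and lay apart for the other 7. On the TPM of all transcripts, the highest levels were thus at the first step and the last step of synthesis. The lowest of the synthesis enzymes were Uros and Cpox between them. On coding transcripts alone Alas2 and Fech stayed highest, but Ppox was the lowest synthesis enzyme. On counts without length normalization Cpox stood above Ppox and Alad.

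**Figure D1:**
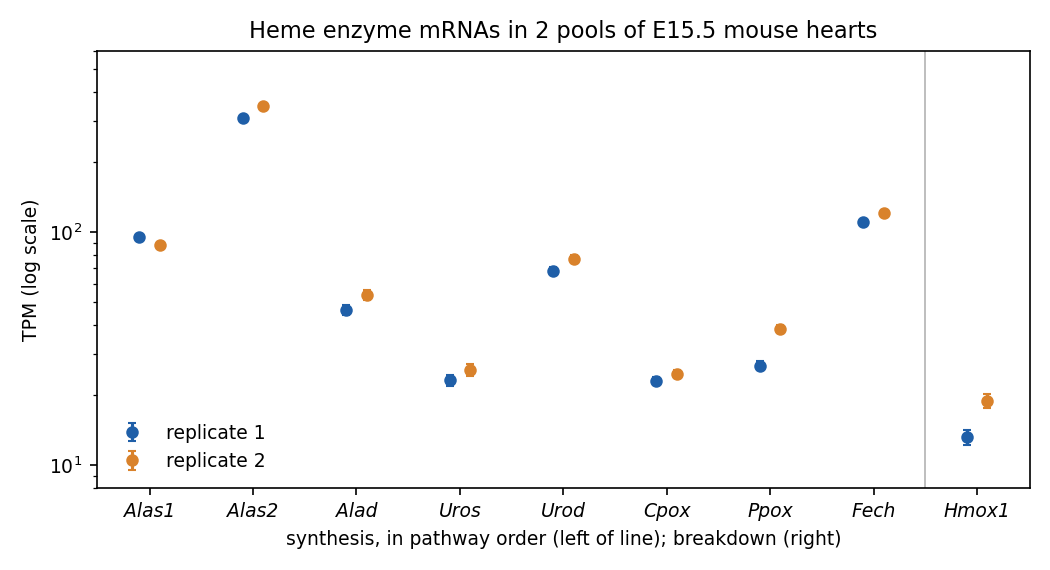
TPM of each enzyme (log axis) in replicate 1 (blue) and replicate 2 (orange), with synthesis enzymes in pathway order left of the line and Hmox1 right of it. Bars are 95% intervals for counting error alone. Alas2 lies above 300 TPM in both pools and Fech above 100 TPM, while Uros, Cpox and Hmox1 lie below 30 TPM.

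Alas2 (ENSMUSG00000025270.9, mm10 chromosome X, 150547375 to 150570638, plus strand) condenses glycine and succinyl-CoA in red cell precursors. It stood at 309 TPM in replicate 1 and 348 TPM in replicate 2, from 18640 and 18473 reads. The mean was 328 ± 27.3 TPM (SD, n = 2), and 96.9% and 97.4% of the detected protein-coding genes were lower. Per 1000 TPM of globin mRNA there were 2.53 TPM of Alas2 in replicate 1 and 2.95 TPM in replicate 2. Protein-coding transcripts held 96.6% and 95.1% of its TPM, led by a transcript of 2037 bases with 76.0% and 72.3% and followed by one of 1892 bases with 20.6% and 22.8%. Apex2, a DNA repair endonuclease gene on the opposite strand, is annotated across the whole of Alas2. It stood at 8.18 and 10.6 TPM, and since the use of strand in counting is not given, reads of the overlap cannot be assigned with certainty.

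The promoter of Alas2 is shown because erythroid genes are classically bound by GATA1, and because its last bases run into the element described next. The RefSeq window on GRCm38.p6 is chrX:150547167-150547466, plus strand, from 250 bases before the start site to 50 bases after it. Capitals mark a GATA word, searched on both strands as the word AGATAA, the word AGATAG, the word TGATAA or the word TGATAG.

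Alas2 promoter: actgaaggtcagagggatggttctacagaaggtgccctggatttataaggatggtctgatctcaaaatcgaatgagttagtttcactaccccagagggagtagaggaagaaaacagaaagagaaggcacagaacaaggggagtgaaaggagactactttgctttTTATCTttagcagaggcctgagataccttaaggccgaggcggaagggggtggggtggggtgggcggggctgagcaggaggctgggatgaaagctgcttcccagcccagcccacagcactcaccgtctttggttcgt

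The word lies 86 bases before the RefSeq start and is on the minus strand. The window also holds CCACCC, the core of the CACCC box read on both strands, 3 times, at 40, 35 and 30 bases before the start, as overlapping copies on the minus strand. Both are common: 29.8% of 32851 promoters of this length hold a GATA word and 31.5% hold CCACCC. Alas2 mRNA is also known to be held back from translation by iron regulatory proteins, which bind a hairpin near its 5′ end when iron is scarce. That hairpin was searched in the 5′ UTRs of GENCODE M21 transcripts as C, any 5 bases, CAGTG, any base and 5 bases that pair with the first 5 (G with T allowed). It was found in 2 of 2 Alas2 transcripts that have a 5′ UTR and in none of those of the other 7 members scanned. Capitals below mark the bulged C and the loop. The ferritin and ferroportin genes are shown for comparison since they carry the same control.

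Alas2 element: ttggttCgtcctCAGTGCagggcaacagg
Ftl1 element: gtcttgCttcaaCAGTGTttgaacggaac
Fth1 element: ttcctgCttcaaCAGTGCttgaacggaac
Slc40a1 element: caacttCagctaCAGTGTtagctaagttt

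The Alas2 element starts at base 90 of a 5′ UTR of 126 bases. The loop letters are the same in Alas2 and Fth1 and end in T in Ftl1 and Slc40a1. Of transcripts with a 5′ UTR, the element was found in 2 of 3 for Ftl1, 4 of 5 for Fth1 and 1 of 4 for Slc40a1. The levels that follow are of whole genes, so they include transcripts without the element. These genes were at very unequal levels. Ftl1, ferritin light chain, stood at 2761 and 3269 TPM and was the highest of the 16 iron genes, Fth1, ferritin heavy chain, stood at 1751 and 1651 TPM, and Slc40a1, the iron exporter ferroportin, stood at 14.9 and 17.4 TPM. The 2 binding proteins were lower than Alas2 mRNA, with Aco1 at 25.1 and 29.0 TPM and Ireb2 at 14.4 and 15.3 TPM. Fth1, Slc40a1, Aco1 and Ireb2 were chosen after their values were seen. Ferritin genes have near-identical copies in the genome, so their levels are uncertain, and RNA levels do not show translation.

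Alas1 (ENSMUSG00000032786.10, chromosome 9, 106233455 to 106248654, minus strand) catalyses the same first step in every tissue and is repressed by heme in liver. Its level was 95.03 TPM in replicate 1 and 87.8 TPM in replicate 2, from 5835 and 4716 reads, with a mean of 91.4 ± 5.13 TPM (SD, n = 2). It was the one member with a lower TPM in replicate 2 than in replicate 1. Alas2 was 3.25-fold higher than Alas1 in replicate 1 (counting interval 3.16 to 3.35) and 3.96-fold higher in replicate 2 (3.84 to 4.09), a mean log2 ratio of 1.84 ± 0.20 (SD, n = 2; 0.1 TPM added to both). The erythroid form exceeded the housekeeping form in both pools, by more than the spread between them. With 2 libraries an exact sign-flip test can give no p smaller than 0.5, so none is printed.

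The size of that ratio depended on which Alas1 transcripts were counted. Protein-coding transcripts held 53.6% of Alas1 TPM in replicate 1 and 45.3% in replicate 2. The leading coding transcript, of 2129 bases, stood at 44.1 TPM (deposited interval 37.3 to 47.9) and 32.5 TPM (26.2 to 36.0). A transcript of 1905 bases annotated as processed, with no reading frame assigned, stood at 36.1 TPM (31.2 to 39.9) and 38.4 TPM (33.2 to 41.6). The intervals of these 2 transcripts overlapped within each library, so which one leads is not settled at this depth. On protein-coding transcripts alone, a comparison chosen after the data were seen, Alas2 and Alas1 stood at 298 and 51.0 TPM in replicate 1 and at 331 and 39.7 TPM in replicate 2. The ratio was then 5.86-fold and 8.32-fold, with a mean log2 of 2.80 ± 0.36 (SD, n = 2).

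**Figure D2:**
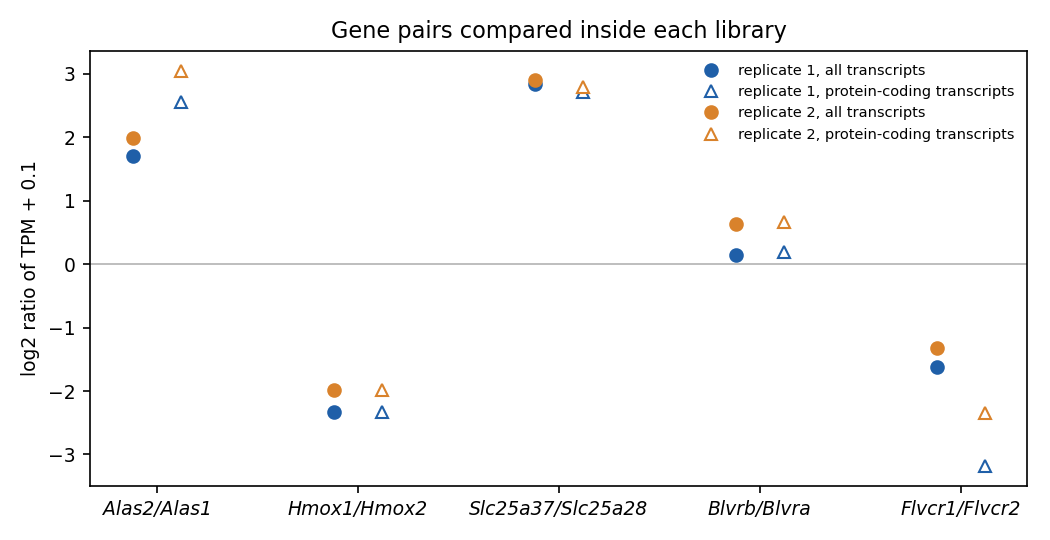
log2 ratio of TPM (0.1 TPM added) for 5 pairs of related genes inside each library, with filled circles for all transcripts, open triangles for protein-coding transcripts, blue for replicate 1 and orange for replicate 2. Alas2/Alas1 is above 0 in every case and higher on coding transcripts, while Hmox1/Hmox2 is near -2 in both.

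The Alas1 promoter is shown for contrast with that of Alas2: it holds no GATA word but has the core of the NRF1 motif, CGCATGCG, which reads the same on both strands. NRF1 is a regulator of nuclear genes for mitochondrial proteins. The window is chr9:106247681-106247980 on GRCm38.p6, minus strand, from RefSeq, and capitals mark the core.

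Alas1 promoter: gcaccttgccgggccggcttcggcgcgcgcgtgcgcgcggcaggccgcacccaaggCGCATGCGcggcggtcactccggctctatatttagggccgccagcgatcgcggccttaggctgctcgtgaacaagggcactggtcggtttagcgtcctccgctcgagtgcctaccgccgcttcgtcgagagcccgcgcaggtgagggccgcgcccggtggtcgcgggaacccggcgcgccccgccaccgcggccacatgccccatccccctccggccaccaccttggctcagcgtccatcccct

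The core lies 194 bases before this start site. RefSeq has a second Alas1 start upstream, and its window holds the same core. Of all promoters, 1.87% hold these letters. Nrf1 mRNA stood at 20.0 and 27.1 TPM, a gene chosen after its values were seen. Among the 7 further genes of synthesis and its regulators, the highest was Pgrmc1, a heme-binding membrane protein, at 93.0 and 111 TPM. The lowest by mean level was Foxo1, a transcription factor, at 4.44 and 5.88 TPM. Ppargc1a, a coactivator that raises Alas1 in fasted liver, stood at 53.5 and 45.1 TPM, and Nr1d1, a nuclear receptor that binds heme, at 6.23 and 5.78 TPM. All 7 reached 1 TPM in both pools, beside 58.2% of all protein-coding genes.

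The cytosolic steps follow. Alad (ENSMUSG00000028393.6, chromosome 4, 62509169 to 62519918, minus strand) joins aminolevulinate molecules into porphobilinogen, and it stood at 46.4 TPM in replicate 1 and 53.8 TPM in replicate 2, a mean of 50.1 ± 5.23 TPM (SD, n = 2). Uros (ENSMUSG00000030979.8, chromosome 7, 133686243 to 133710072, minus strand) closes the ring, and it stood at 23.1 and 25.6 TPM, a mean of 24.3 ± 1.74 TPM. Urod (ENSMUSG00000028684.10, chromosome 4, 116989965 to 116994413, minus strand) trims the side chains of the ring, and it stood at 68.4 and 76.4 TPM, a mean of 72.4 ± 5.69 TPM. Urod was the highest of these 3 in both pools and Uros the lowest, with no overlap among them. Uros shares 740 bases with Bccip on the opposite strand, itself at 69.7 and 68.5 TPM, which makes the Uros level uncertain if strand was not used.

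Cpox (ENSMUSG00000022742.5, chromosome 16, 58670292 to 58717636, plus strand) carries the pathway back into the mitochondrion by oxidising coproporphyrinogen. It stood at 22.9 and 24.7 TPM, a mean of 23.8 ± 1.25 TPM (SD, n = 2), with a range that overlapped that of Uros. Its promoter had the most GATA words of the 10 RefSeq promoters of 7 members that were searched, and is shown for that reason (chr16:58669958-58670257, GRCm38.p6, plus strand, GATA words in capitals).

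Cpox promoter: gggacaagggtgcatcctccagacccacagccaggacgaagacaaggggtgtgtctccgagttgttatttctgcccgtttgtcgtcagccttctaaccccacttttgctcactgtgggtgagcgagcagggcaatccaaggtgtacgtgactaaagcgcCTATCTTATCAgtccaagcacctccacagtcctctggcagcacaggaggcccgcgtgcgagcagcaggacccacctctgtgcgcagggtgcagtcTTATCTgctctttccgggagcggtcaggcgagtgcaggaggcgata

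The 3 words lie at 91 and 86 bases before the RefSeq start, where they share 1 base, and at 4 bases after it. At least 3 words occur in 1.76% of all promoters and at least 2 in 7.77%. Of the 10 promoters searched, 3 hold a GATA word, which is close to the share of all promoters given for Alas2. They are those of Alas2 and Cpox, and 1 of those of Uros, with words at 205 and 68 bases before its start. Cpox, with more such words than Alas2, stood at a far lower level, and a relation of such words to level was not tested. A word in a window is a description and not a bound site.

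Ppox and Fech complete the ring. Ppox (ENSMUSG00000062729.7, chromosome 1, 171275990 to 171281186, minus strand), which oxidises protoporphyrinogen, stood at 26.7 TPM in replicate 1 and 38.4 TPM in replicate 2, a mean of 32.5 ± 8.23 TPM (SD, n = 2). Its libraries lay farthest apart of all the synthesis enzymes in proportion to the mean. Fech (ENSMUSG00000024588.8, chromosome 18, 64452914 to 64490251, minus strand), ferrochelatase, which inserts iron, stood at 111 and 121 TPM, a mean of 116 ± 7.38 TPM, from 10090 and 9859 reads. It was the second highest member in both pools, above Alas1 and below Alas2.

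Ppox is another gene whose level was lower when only coding transcripts were counted. Transcripts with a retained intron held 45.1% of its TPM in replicate 1 and 47.6% in replicate 2, and its leading coding transcript, of 1821 bases, stood at 14.7 and 20.1 TPM. Retained introns held 18.8% and 18.6% of Urod. Coding transcripts held 87.1% and 82.5% of Uros, 98.9% and 99.4% of Alad, and 100% of Cpox and Fech. On coding transcripts alone, Alas1 moved from the third place to the fifth and Ppox from the sixth to the eighth, giving the order Alas2, Fech, Urod, Alad, Alas1, Cpox, Uros, Ppox and Hmox1. Ppox also shares 907 bases with B4galt3 on the opposite strand, at 36.4 and 46.0 TPM. Whether unspliced RNA or overlapping genes enter these shares was not tested.

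**Figure D3:**
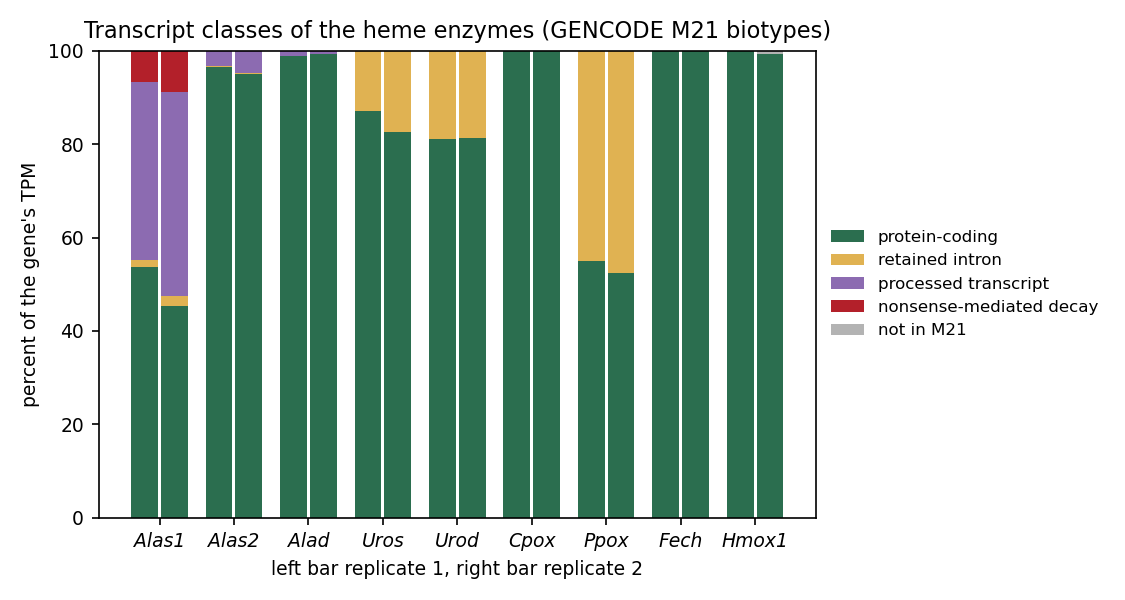
Percent of each gene's TPM by GENCODE M21 transcript class, with replicate 1 as the left bar and replicate 2 as the right bar of each pair. Alas1 and Ppox have about 50% of their TPM outside protein-coding transcripts in both pools (coding shares 45.3% to 54.9%), while Cpox and Fech have none.

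Hmox1 (ENSMUSG00000005413.7, chromosome 8, 75093621 to 75100589, plus strand), the inducible heme oxygenase, was the lowest member. It stood at 13.2 TPM in replicate 1 and 18.8 TPM in replicate 2, from 645 and 819 reads, a mean of 16.0 ± 4.00 TPM (SD, n = 2), near the middle of the detected protein-coding genes (47.4% and 52.8% were lower). Hmox2, the constitutive heme oxygenase, stood at 66.6 and 74.5 TPM. Hmox2 was 5.05-fold higher than Hmox1 in replicate 1 and 3.95-fold higher in replicate 2, and the mean log2 ratio of Hmox1 over Hmox2 was -2.15 ± 0.25 (SD, n = 2). The constitutive form exceeded the inducible form in both pools.

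Biliverdin reductases, which make the next product, were both present. Blvrb stood at 40.4 and 53.3 TPM and Blvra at 36.4 and 34.5 TPM, a mean log2 ratio of 0.39 ± 0.34 (SD, n = 2), in which the libraries differ by more than the mean. Hmox1 is induced by NRF2 and repressed by BACH1, whose hold is released by heme. Nfe2l2, which encodes NRF2, stood at 40.9 and 42.8 TPM and Bach1 at 6.68 and 8.33 TPM, both chosen after their values were seen. Of 11 genes of that axis, 10 reached 1 TPM in both pools, beside 58.2% of all protein-coding genes. By mean level the highest was Txnrd1, thioredoxin reductase, at 39.2 and 48.6 TPM, though Nfe2l2 was higher in replicate 1. The lowest was Slc7a11, the cystine carrier, at 0.08 and 0.18 TPM.

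Genes that move iron, heme and its precursors reached 1 TPM in both pools in 16 of 16 cases, beside 58.2% of all protein-coding genes. The highest was Snx3, a sorting protein that recycles the transferrin receptor, at 283 and 291 TPM. The lowest was Flvcr1, a heme exporter, at 2.17 and 2.78 TPM, below its relative Flvcr2 at 6.89 and 7.15 TPM. Abcg2, a porphyrin exporter, stood at 38.6 and 35.3 TPM and had the lowest ratio between the pools in that list, -0.42 on the TMM log2 scale used below. Slc25a37, mitoferrin 1, the mitochondrial iron carrier of red cell precursors, stood at 47.6 and 56.3 TPM, against 6.57 and 7.43 TPM for Slc25a28, mitoferrin 2, the carrier of other tissues. Their ratio was 7.24-fold and 7.57-fold, a mean log2 of 2.87 ± 0.05 (SD, n = 2), and on read counts without length normalization the mean log2 was 4.45. Alas2/Alas1 and Slc25a37/Slc25a28 had the form known from red cell precursors higher in each pool. Flvcr1/Flvcr2 went the other way, at 0.315-fold and 0.389-fold, and Blvrb/Blvra stood at 1.11-fold and 1.54-fold.

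The pools were then compared gene by gene on counts scaled by edgeR's TMM factor, as replicate 2 over replicate 1. Of the 9 members, 0 differed by 1.5-fold or more, beside 15.7% of the 17029 genes with at least 10 counts in both (11.1% higher in replicate 2 and 4.65% higher in replicate 1). With so few members that count is a description and no test was made of it. Log2 ratios of the members ran from -0.38 for Alas1 (counting interval -0.44 to -0.32) to 0.30 for Ppox (0.21 to 0.39), and that of Hmox1 was 0.27 (0.12 to 0.42). The other 6 lay between -0.13 for Cpox and -0.03 for Alad, with Alas2 at -0.09 and Fech at -0.11. The median size of the log2 ratio was 0.11 over the members and 0.22 over all genes. The members had 645 to 18640 counts in a library, while the genes beside them started at 10 counts. Neither this comparison nor that of the genes past 1.5-fold was matched for counts.

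The sign of these small differences followed the scaling. On the TMM scale 2 members were above 0 and 7 below, while on total gene counts, which shift every ratio by 0.17, 8 were above and 1, Alas1, below. Scaled to spike-in counts, which shift every ratio by -0.92, all 9 were below 0, from -1.30 to -0.61, and 9 of 9 were 1.5-fold or more lower in replicate 2, as were 81.6% of all genes. Spike-ins took 1.58% of all counts in replicate 1 and 3.12% in replicate 2.

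**Figure D4:**
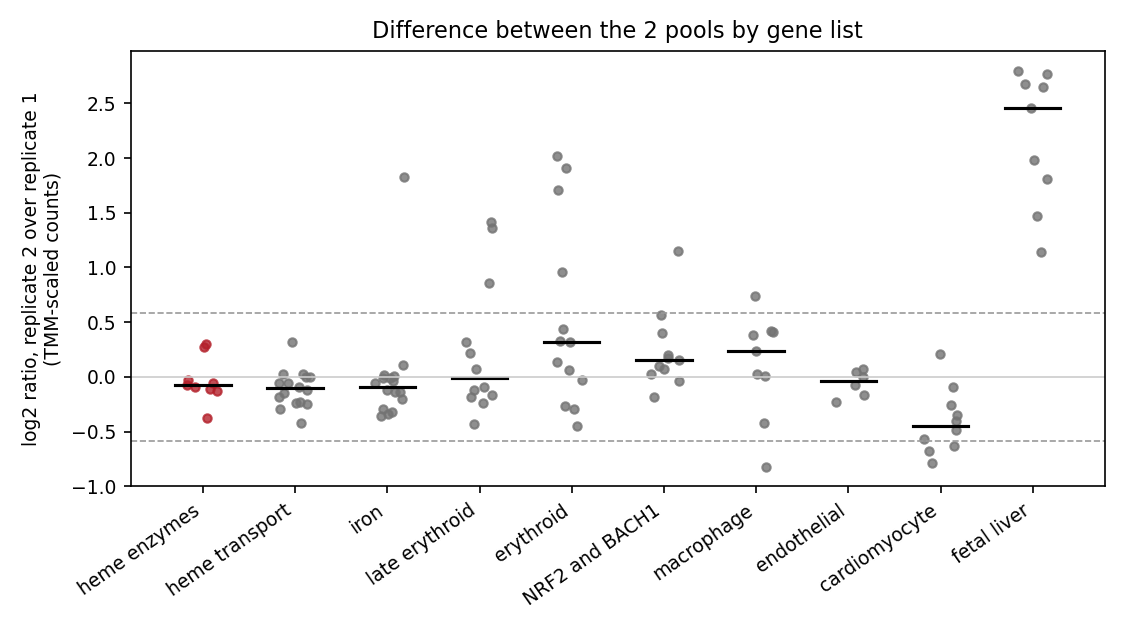
log2 ratio of replicate 2 over replicate 1 on TMM-scaled counts, one point per gene with at least 10 counts in both libraries, by gene list, with the list's median as a black line and 1.5-fold as dashed lines. The heme enzymes (red) lie between -0.38 and 0.30, inside the dashed lines, while all 9 fetal liver genes lie above 1.

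The pools differed in the level of fetal liver genes, and the part of this in the heme enzyme levels was not tested. Over all genes tested, 11.1% were 1.5-fold or more higher in replicate 2 and 4.65% higher in replicate 1. The lists are short, and no test was made of the counts below against these shares. Of 10 fetal liver genes, 9 had enough counts and all 9 were 1.5-fold or more higher in replicate 2, with a median log2 ratio of 2.46 and a summed level of 59.6 TPM in replicate 1 and 263 TPM in replicate 2. Among them Trf, transferrin, was the highest at 31.5 and 104 TPM and Fgb, a fibrinogen chain, the lowest at 0.27 and 2.27 TPM, and Afp, alpha-fetoprotein, stood at 5.52 and 44.5 TPM. Of 13 erythroid genes, 4 were past 1.5-fold, all higher in replicate 2: Gata1 at 0.46 and 1.98 TPM, Klf1 at 0.90 and 4.04 TPM, Ermap at 0.57 and 2.39 TPM, and Rhag at 0.92 and 2.12 TPM. The summed level of that list, nearly all of it globin, was 47913 TPM in replicate 1 and 44926 TPM in replicate 2. The other 9 were within 1.5-fold, among them the list's highest gene, Hbb-bs, an adult beta globin, at 28384 and 24655 TPM. They also held its lowest gene by mean level, Tal1, a transcription factor, at 0.94 and 1.23 TPM. Of 12 late erythroid genes with enough counts, 3 were past 1.5-fold, all higher in replicate 2, including Add2 at 0.84 and 2.65 TPM and Hemgn at 0.95 and 2.89 TPM. The highest of all 13 genes on that list was Bnip3l, which serves mitochondrial clearance, at 392 and 434 TPM, and the lowest Trim58, a ubiquitin ligase, at 0.13 and 0.36 TPM. No gene of these lists had 0 counts in a library. Alas2 and Fech, at ratios of -0.09 and -0.11, lay far from Gata1 and Klf1, at 2.02 and 1.91.

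Of 10 cardiomyocyte genes, 3 were 1.5-fold or more higher in replicate 1, beside 4.65% of all genes tested, with a list median of -0.44. Among them were Pln, phospholamban, at 779 and 529 TPM and Myl2, a ventricular myosin light chain, at 8245 and 6057 TPM. The lowest of that list was Ryr2, the calcium release channel, at 12.23 and 12.03 TPM. Alas1, at -0.38, lay near the cardiomyocyte median, in a list whose ratios ran from -0.79 for Pln to 0.21 for Nppa. Of 9 macrophage genes with enough counts, Cd68 was past 1.5-fold upward, at 7.34 and 15.4 TPM, and Cd163 downward, at 0.28 and 0.18 TPM, and the list summed to 155 and 227 TPM, with Lyz2, lysozyme, the highest at 69.6 and 107 TPM. Macrophages that clear red cells are a known site of Hmox1. The ratio of Hmox1 was 0.27, while macrophage ratios ran from -0.82 for Cd163 to 0.74 for Cd68, with a median of 0.24. The 6 endothelial genes were all within 1.5-fold, from -0.23 for Kdr, the lowest in level at 29.1 TPM in both, to 0.07 for Egfl7, the highest at 132 and 163 TPM. Emcn, endomucin, stood at 45.5 and 46.3 TPM. Of the 11 NRF2 and BACH1 genes, 1 was past 1.5-fold, beside 15.7% of all genes tested: Nqo1, a quinone reductase, at 8.83 and 23.1 TPM. Srxn1, sulfiredoxin, was next at 4.40 and 8.47 TPM, a log2 ratio of 0.57. Of 16 iron genes, 1 was past 1.5-fold, again beside 15.7%: Tfr2, a transferrin receptor of liver and red cell precursors, at 0.19 and 0.79 TPM. Iscu, the scaffold of iron-sulfur cluster assembly, was farthest in the other direction at 102 and 92.6 TPM, a log2 ratio of -0.36. The part of these cell types in the levels of Alas1 and Hmox1 was not tested.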

How the data were processed

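RNA was prepared with mirVana, per the labels' protocols, and 10 ng of RNA over 200 nt entered each library with spike-ins. The labels say total RNA but link a manual for an oligo(dT)-primed kit. Per the file headers, the authors quantified mm10 with GENCODE M4. The names of the aligner and quantifier and any use of strand were not given in the sources used here. Expected counts, as deposited, are estimates in which the authors shared out reads that fit several genes. The deposited TPM are scaled per library over all features, spike-ins included. The deposited percent is a transcript's share of its gene's TPM. Intervals on transcript TPM and the posterior mean TPM are also the authors'.

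Symbols came from GENCODE M21 by stable identifier (42462 of 43346). Expected counts were rounded. Pairs were compared inside libraries as log2 of TPM + 0.1. Library ratios used edgeR 4.0.16 TMM factors (R 4.3.3), a prior of 0.5 counts and a minimum of 10 counts in each library, with exact 95% intervals that cover counting error only. Alternatives included DESeq2 1.42.0 size factors, total counts, spike-ins, posterior mean TPM and coding transcripts. Promoters came from RefSeq (GRCm38.p6) and were searched for 7 members. Chromosome 18, and with it Fech, was left out of the promoter and hairpin searches. In each list the text names the highest and lowest members by mean TPM, those 2 farthest apart between the pools and the genes of a pair. Other genes named were chosen after their values were seen. The members and lists were chosen with earlier results of these data known. Of 14 erythroid genes 1, Ahsp, had no match. Also, 1 further gene of a list is not reported here.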

Additional observations from a re-analysis of the deposited data

How the results depend on the processing

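Over 36 results, 174 values under alternatives were computed. Of these, 125 stayed within the spread between pools (or its counting interval, or 1.5 times a count) and 49 moved. Part of the 125 was fixed in advance, so that number does not measure stability. The value of 1 library always lies within the SD of the 2 around their mean. The count filters could not change the member ratios, because every member had at least 645 counts. None of the member ratios between the pools was past 1.5-fold on the TMM scale, and 14 values of these small ratios had the other sign elsewhere: 6 with total counts, 6 with deposited TPM and 2, Ppox at -0.61 and Hmox1 at -0.64, with spike-ins. On protein-coding transcripts alone, an alternative chosen after seeing the data, 4 of the 9 members kept their place in the order and the mean log2 ratio of Alas2 over Alas1 was 2.80. With spike-in scaling, 9 members were 1.5-fold or more higher in replicate 1, against 0 on the TMM scale. On counts without length normalization, 6 members kept their place, with Cpox rising above Alad. Leaving out each replicate in turn leaves the value of 1 library, which gave log2 ratios of 1.70 to 1.98 for Alas2 over Alas1. For Hmox1 over Hmox2 the values were -2.33 to -1.98. The order held at 9 in both cases. The number detected stayed at 9, which was fixed in advance because every member reached 1 TPM in both pools. The ratio of Flvcr1 over Flvcr2 went from -1.48 to -2.76 on coding transcripts, where Flvcr1 was at 0.670 and 1.33 TPM, and that of Slc25a37 over Slc25a28 from 2.87 to 4.45 on counts without length normalization. No paired analysis was possible because there is 1 group. With 2 pools, the spread rests on 1 difference, and counting intervals do not include it. The smallest counts among the members were 645 and 819, for Hmox1.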

Other observations

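The mRNAs of the main heme carriers, adult globins and myoglobin, were at higher levels than those of the 9 enzymes. All 15 genes of the list of heme users reached 1 TPM in both pools, beside 58.2% of all protein-coding genes. Hba-a2, an adult alpha globin with a near-identical copy, was the highest at 54949 TPM in replicate 1 and 53347 TPM in replicate 2. The lowest by mean level was Hbb-bh1, an embryonic beta-like globin, at 6.28 and 10.5 TPM. Mb, myoglobin, the oxygen store of muscle, stood at 692 and 633 TPM, about 2 times the level of Alas2, and was chosen after its values were seen.

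On the TMM scale 3 of the 15 were past 1.5-fold between the pools, in both directions, beside 15.7% of all genes tested, so the count is near the background. The embryonic globins Hbb-y, at 602 and 1264 TPM, and Hba-x, at 163 and 310 TPM, were higher in replicate 2. Cycs, cytochrome c of the respiratory chain, was higher in replicate 1, at 180 and 119 TPM. Hba-a2 differed by -0.28 on the log2 scale.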
